A study of Canis lupus familiaris with 16 samples.

Results

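ARAP3, AMOT and ECE1 are 3 genes with roles in endothelial signaling, taken from the 83 genes that the study listed as lower in canine meningioma than in control meninges, and measured here among 24580 annotated genes. They were chosen by the study's own contrast of meningioma against control, and the identifiers were those of the list, which are ENSCAFG00000006214 for ARAP3, ENSCAFG00000018218 for AMOT and ENSCAFG00000014920 for ECE1. The difference between meningioma and control is therefore given as a description with no test, and the tests are kept for how the genes varied among the tumors.

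The series held RNAseq of 13 primary meningiomas, biopsies of the brain or spinal cord lining from pet dogs of several breeds. Of these, 6 were grade I (benign) and 7 were grade II (atypical). The study had sequenced more tumors and left out those with low mapping, outliers in early principal components, and melanomas first taken for meningioma. The spread between tumors given here is therefore that of a filtered set. The controls were normal leptomeninges, the thin inner membranes over the cortex, from 3 healthy research beagles. Each library came from a separate dog, and the labels name no treatment. The methods describe 11 meningiomas as formalin-fixed and paraffin-embedded, 2 as flash-frozen and all controls as frozen, and RNA was extracted by different kits from fixed and frozen tissue, so that preservation and group cannot be told apart for most of the libraries. The deposited table numbers the meningioma libraries 0 to 12 and the control libraries 0 to 2 without naming the dog, and libraries were not matched to dogs by their values, so grade, preservation, breed, sex and age were not compared.

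ARAP3 encodes a GTPase-activating protein, with Arf6 among its targets, that is brought to the membrane by a lipid product of PI3K, and it is required for the sprouting of blood and lymphatic vessels in the embryo. AMOT encodes angiomotin, a scaffold of cell junctions and the cytoskeleton that was found as an angiostatin-binding protein, promotes endothelial migration, and binds Merlin and the co-activator YAP in the Hippo growth-control pathway. ECE1 encodes endothelin-converting enzyme 1, a membrane metalloprotease that cleaves inactive big endothelin into the vasoconstrictor peptide, and it is abundant in endothelium without being restricted to it.

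Library totals were 2138741 to 7358925 fragments on genes in the meningiomas and 2269204 to 7054614 in the controls. No library was a copy of another. The closest pair was meningioma libraries 9 and 10, with a chi-square per degree of freedom over genes of 4.80. The next closest meningiomas, 3 and 10, had 15.1, and the closest controls, 1 and 2, had 17.2. Libraries 9 and 10 are counted as separate tumors in all tests. Meningioma libraries 2 and 12 stood apart on principal component 3, with scores of -70.3 and -67.5 against -14.9 to 34.9 for all other libraries, and values without them are given where a result changed. Levels are in FPKM, the fragments on a gene scaled for transcript length and library size. A comparison between genes therefore also depends on the length used for each gene.

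ARAP3 had a lowest level of 2.75, a median of 3.40 and a highest level of 7.58 FPKM among the 13 meningiomas. The 3 controls had 18.9, 13.9 and 27.3 FPKM. No meningioma reached any control, and the lowest control was 1.84 times the highest meningioma. Across the series, 524 of 14345 genes with enough fragments (3.65%) had all 13 meningiomas below all 3 controls, a pattern which all 3 genes share and for which they were in effect selected. The mean was 4.22 ± 1.71 FPKM in meningioma (SD, n = 13) and 20.0 ± 6.78 in control (SD, n = 3). In single meningiomas ARAP3 was 13.7% to 37.8% of the control mean, and 9 of 13 were at least 4-fold below it. Most tumors were close together, from 2.75 to 4.43 FPKM, while libraries 10, 9, 7 and 6 had 5.44, 5.65, 7.25 and 7.58 FPKM. These values rest on 51 to 136 fragments per meningioma library. FPKM per scaled fragment differed by up to 9.69% between libraries for ARAP3, so its FPKM was not a fixed multiple of its scaled fragments. For AMOT and ECE1 the ratio was constant. The reason for the difference was not tested.

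AMOT was the lowest of the genes in most tumors and, with library 0 included, the most uneven between them. Its lowest, median and highest levels among the meningiomas were 0.432, 2.88 and 7.47 FPKM, a 17.3-fold range. The controls had 17.5, 10.6 and 11.3 FPKM. The groups did not overlap, but the gap was the smallest of the 3 genes, the lowest control being 1.42 times the highest meningioma. The mean was 3.21 ± 1.72 FPKM in meningioma (SD, n = 13) and 13.1 ± 3.79 in control (SD, n = 3), and 8 of 13 meningiomas were at least 4-fold below the control mean. A single tumor made much of this range. Library 0, the most deeply sequenced, held 21 AMOT fragments, with an exact Poisson 95% interval of 13.0 to 32.1 fragments or 0.267 to 0.660 FPKM, which stays below the next lowest library at 1.53 FPKM. At the other end, library 11 was 56.9% of the control mean and was the only meningioma less than 2-fold below it. The SD of log2 FPKM was 0.98 with all 13 meningiomas and 0.59 without library 0, the latter below the 0.63 of ECE1 over all 13. For ECE1 neither of these libraries was at the end of the range, with 8.20 FPKM in library 0 and 17.9 in library 11.

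ECE1 was the most abundant of the genes. Its lowest, median and highest levels in meningioma were 4.98, 10.6 and 21.1 FPKM. The controls had 44.9, 35.1 and 59.6 FPKM. Again the groups did not overlap, the lowest control being 1.67 times the highest meningioma. The mean was 11.2 ± 4.81 FPKM in meningioma (SD, n = 13) and 46.6 ± 12.3 in control (SD, n = 3). Single meningiomas ranged from 10.7% of the control mean in library 3 to 45.3% in library 1, and 7 of 13 were at least 4-fold below it. ECE1 had 69 to 443 fragments per meningioma library, and the values were spread evenly with no library far from the next.

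**Figure D1:**
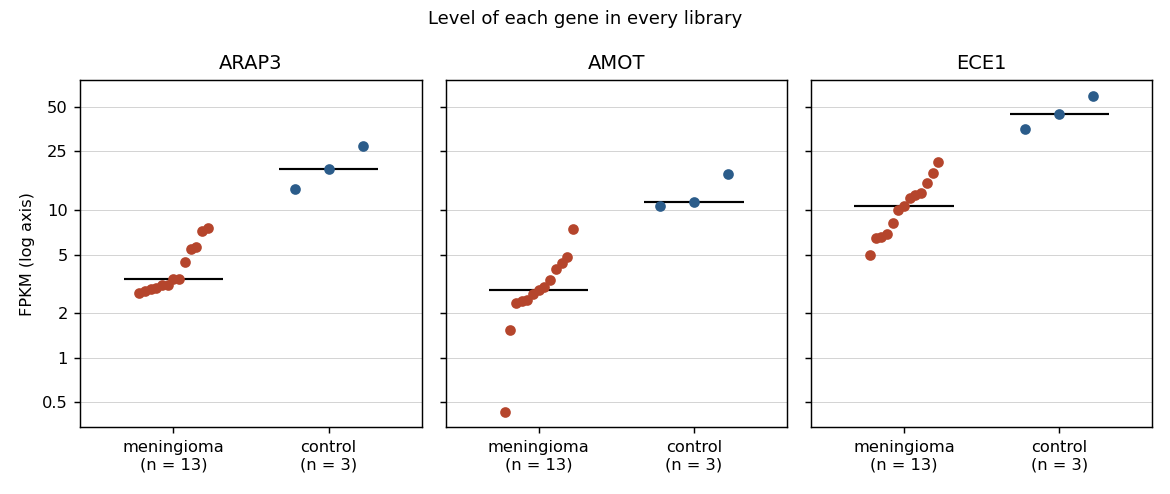
FPKM on a log axis of ARAP3, AMOT and ECE1 in every library, with 1 point per meningioma (red) or control (blue) library and a line at each group's median. All meningiomas lie below all controls for each gene, and a single meningioma at 0.432 FPKM lies well below the others for AMOT.

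The tumors with the most ARAP3 were not those with the most AMOT or ECE1. ARAP3 was highest relative to control in libraries 6 and 7, AMOT in libraries 11 and 4, and ECE1 in libraries 1 and 11. Library 11 had the lowest ARAP3 level of all tumors, 13.7% of the control mean, beside the highest AMOT level and an ECE1 level of 17.9 FPKM, the second highest. Library 3, with the lowest ECE1 level, had ARAP3 and AMOT levels of 4.43 and 2.88 FPKM that were at or above their medians. The SD of log2 FPKM between meningiomas was 0.53 for ARAP3, 0.98 for AMOT and 0.63 for ECE1, against 0.17, 0.17 and 0.11 expected from counting fragments alone. Compared with all tested genes on the log2(FPKM + 1) scale, these spreads were ordinary, at percentiles 38.0, 65.7 and 60.0.

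**Figure D2:**
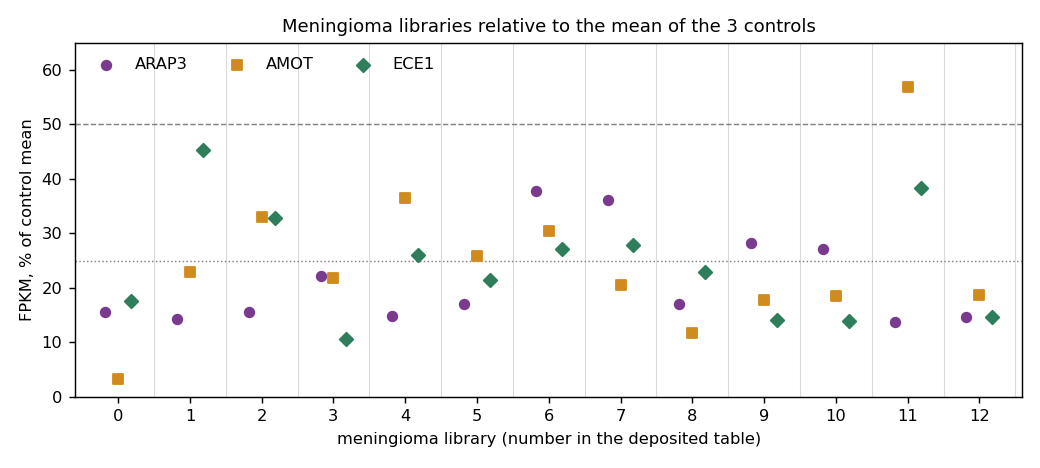
FPKM of each gene in each meningioma library as a percentage of the mean of the 3 controls, with the dashed line 2-fold and the dotted line 4-fold below that mean. AMOT in library 11 (56.9%) is the only point above the dashed line, and the libraries with the most ARAP3 (6 and 7) differ from those with the most ECE1 (1 and 11).

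The order of the genes was compared within libraries, since it was not used to choose them. A constant error in the scaling of a gene would shift all libraries alike, and the tests cannot separate it from a difference in level. ECE1 was higher than ARAP3 in 13 of 13 meningiomas (mean log2 FPKM ratio of ARAP3 over ECE1, -1.38 ± 0.92; SD, n = 13; exact two-sided sign-flip test, p = 0.000244, adjusted over 3 pairs 0.000366). ECE1 was also higher than AMOT in 13 of 13 (AMOT over ECE1, -1.92 ± 0.91; exact p = 0.000244, adjusted 0.000366), and 0.000244 is the smallest p that 13 libraries allow. ARAP3 was above AMOT in 9 of 13 meningiomas, by 0.54 ± 1.11, and the same sign-flip test did not show a mean difference (exact p = 0.105, adjusted 0.105). In the controls ECE1 was likewise highest and ARAP3 was above AMOT in 3 of 3, with mean log2 ratios of -1.24, -1.83 and 0.59 for the same pairs. The means thus had the same order in tumor and control, and no mean difference between ARAP3 and AMOT was shown over all 13 tumors.

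In the edgeR fit of all tested genes, the log2 fold change of meningioma over control was -2.21 (SE 0.29) for ARAP3, -2.03 (SE 0.42) for AMOT and -2.05 (SE 0.32) for ECE1, that is 4.63-, 4.08- and 4.13-fold lower. The median over all tested genes was 0.06, and 2.24%, 2.82% and 2.70% of the tested genes were lower still. Among the 83 genes that the study listed as lower, the 3 genes ranked 61, 72 and 69 from the largest fall, and the median of that list was -2.58. They were thus among its smaller falls, and no p is given since the list was selected on these libraries. The same fit without libraries 2 and 12 gave -2.13, -2.05 and -2.04.

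The pathway genes around each of the 3 could be examined only in part, because the table names genes by identifier and symbols were paired with identifiers for 124 study-listed genes. Of 17 genes named for ARAP3, which concern small GTPase and PI3K signaling, 5 had an identifier, and all 5 had every meningioma below every control. PIK3R1, the regulatory subunit of PI3K, was 19.2 ± 9.58 FPKM in meningioma and 96.1 ± 43.3 in control, with a log2 fold change of -2.32 (SE 0.34). The guanine nucleotide exchange factors PREX2, KALRN and MCF2L, which activate small GTPases, had log2 fold changes of -1.91, -1.95 and -2.16. ARHGEF15, an exchange factor of endothelial cells, had the largest fall of the 5, -3.31 (SE 0.36). Because these genes were all picked by the study on this contrast, their common direction is not independent evidence.

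For ECE1, 3 of 10 genes of endothelin and vasoactive peptide signaling had an identifier, all 3 with non-overlapping groups. The angiotensin-converting enzyme ACE, another membrane metalloprotease that makes a vasoconstrictor peptide, was 0.851 to 6.46 FPKM in meningioma and 19.2 to 31.3 in control, a log2 fold change of -2.87. CALCRL, the receptor for calcitonin gene-related peptide and adrenomedullin, had -2.90 (SE 0.31), and NOS3, the endothelial nitric oxide synthase, had -2.26 (SE 0.43). The endothelins, their receptors and neprilysin were not analysed here, and neither were any of the 20 genes named for AMOT, among them Merlin, YAP, the LATS kinases and the TEAD factors. Thus nothing is given on Hippo targets beside the AMOT level.

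Markers of vessel cells were lower in the same tumors. All 12 endothelial markers with an identifier, of 19 named, had every meningioma below every control, and their summed level was 47.7 to 202.4 FPKM in meningioma against 521.9 to 863.4 in control. Their median log2 fold change was -2.81 (range -3.80 to -2.10), so that even PLVAP, the least changed of them, had a fall close to those of ARAP3, AMOT and ECE1. All 5 mural markers of 13 named (smooth muscle and pericytes) did likewise, with a median of -3.27, and 7 of 9 matrix markers of 13 named, with a median of -2.49. In contrast PDPN, the podoplanin of arachnoid cells and the single meningothelial marker with an identifier, had a log2 fold change of 2.45. No marker was at 0 in any library, and all of these had been picked by the study on this contrast. In bulk tissue, fewer of the cells that express these genes, endothelial or other, and less of their RNA per cell cannot be told apart.

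**Figure D3:**
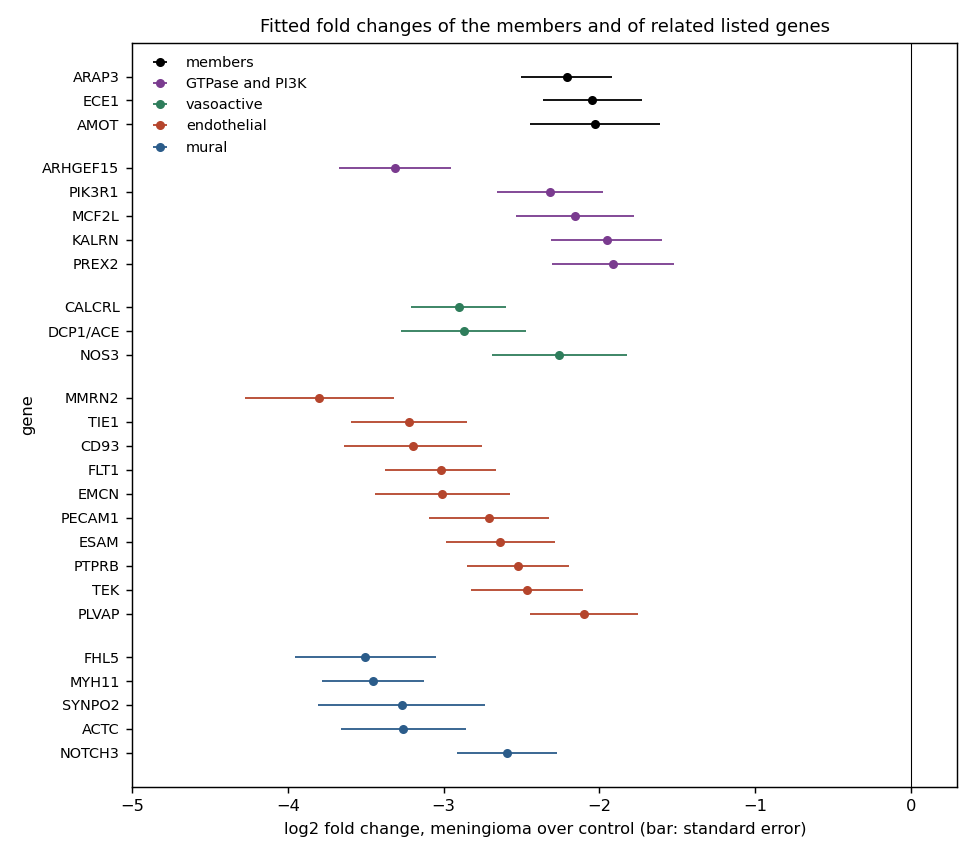
Fitted log2 fold change of meningioma over control, with bars of 1 standard error, for ARAP3, AMOT and ECE1 ("members"), the pathway genes with an identifier, and the endothelial and mural markers; NOS3 and CALCRL, drawn with the vasoactive genes, are endothelial markers as well. The 3 genes lie at -2.21, -2.03 and -2.05, to the right of 11 of the 12 endothelial markers for ARAP3 and of all 12 for AMOT and ECE1.

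Set against the sum of the listed endothelial markers in the same library, the 3 genes fell less than that sum did in most tumors. ARAP3 was 1.92% to 7.49% of the endothelial sum in meningioma (median 3.86%) and 2.67% to 3.16% in control, with 11 of 13 meningiomas above all controls. AMOT was 0.564% to 10.4% (median 2.95%) against 1.31% to 2.50%, with 9 of 13 above and 2 of 13 below all controls. ECE1 was 4.35% to 44.2% (median 8.95%) against 6.41% to 6.90%, with 11 of 13 above. These ratios contain the levels on which the genes were chosen and are not tested. The markers in the sum were also picked by the study as lower on this contrast, and unlisted endothelial markers are missing from it. The 3 genes were among the smaller falls of that list, so a higher ratio in tumors follows in part from these choices.

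Whether the 3 genes moved with the endothelial markers from tumor to tumor was tested over the 13 meningiomas on the log2(FPKM + 1) scale. This relation was not the contrast by which they were chosen. The genes and markers were, however, all listed by the study from these same libraries, so the test is not fully independent of that choice. With the mean of the 12 endothelial markers, ARAP3 had Pearson r = 0.65 (95% interval 0.16 to 0.88; two-sided permutation p = 0.0163, adjusted over 15 correlations 0.123) and a Spearman coefficient of 0.69 (permutation p = 0.0112, adjusted 0.132). AMOT had r = 0.13 (-0.45 to 0.64; permutation p = 0.676, adjusted 0.899) and Spearman coefficient 0.12 (permutation p = 0.711, adjusted 0.820). ECE1 had r = -0.0044 (-0.55 to 0.55; permutation p = 0.988, adjusted 0.988) and Spearman coefficient -0.022 (permutation p = 0.949, adjusted 0.949). The ARAP3 relation did not pass the adjustment and rested on libraries 7 and 6, the tumors richest in both, since r fell to 0.22 without them. Without libraries 2 and 12 it was 0.79 (permutation p adjusted 0.0284), and library 2 alone, with many endothelial transcripts and 3.11 FPKM of ARAP3, gave the same change. As a description, the r of ARAP3 with the endothelial level was at percentile 98.9 of 14667 genes, that of AMOT at 65.8 and that of ECE1 at 49.4.

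**Figure D4:**
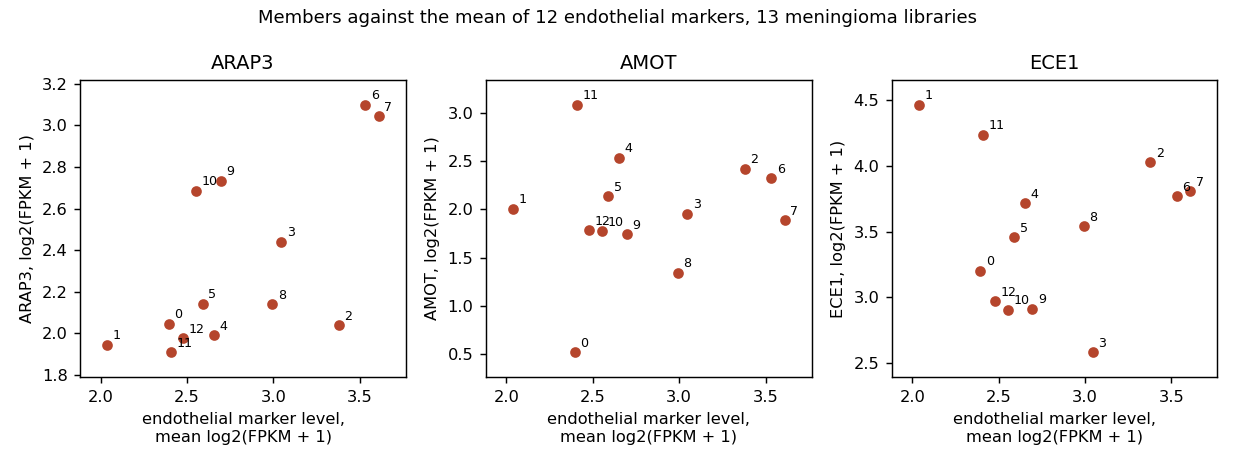
Level of each gene, log2(FPKM + 1), against the mean log2(FPKM + 1) of 12 endothelial markers in the 13 meningioma libraries, labelled with their numbers. Libraries 6 and 7 lie at the upper right for ARAP3 (r = 0.65 with them, 0.22 without), while for AMOT and ECE1 r is 0.13 and -0.0044.

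The difference between the genes in this relation was itself tested, by swapping the standardized values of a pair of genes within libraries, a test chosen after seeing the data. The r of ARAP3 exceeded that of AMOT by 0.52 (exact two-sided p = 0.213, adjusted over 3 pairs 0.337) and that of ECE1 by 0.66 (exact p = 0.224, adjusted 0.337), so ARAP3 was not shown to follow endothelial markers more closely than the others. The 13 tumors leave a wide interval around each r.

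With single endothelial markers, ARAP3 had a positive r with 12 of 12, from 0.08 to 0.89. The highest were EMCN (endomucin, 0.89), PTPRB (the endothelial phosphatase VE-PTP, 0.87), ESAM (an endothelial adhesion molecule, 0.87) and PECAM1 (0.72), and the lowest were TEK (0.14), PLVAP (0.09) and NOS3 (0.08). Without libraries 6 and 7, EMCN, PTPRB and ESAM kept 0.75, 0.79 and 0.78. AMOT ranged from -0.12 to 0.30 and ECE1 from -0.26 to 0.47, with CALCRL the highest for both. ARAP3 thus ran close to some endothelial markers and not others, and AMOT and ECE1, although known from endothelium, had no r above 0.5 with any of the 12. Closeness to ARAP3 was not particular to endothelial markers. Its r was positive with 4 of 5 mural markers, from -0.08 (NOTCH3) to 0.74 (MYH11). With matrix markers it was positive for 4 of 9, from -0.59 (FMOD) to 0.67 (COL14A1).

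Mural and matrix markers and depth were examined in the same way. ARAP3 had r = 0.73 with the mural level (permutation p = 0.00443, adjusted 0.0664; Spearman coefficient 0.65, permutation p = 0.0187, adjusted 0.132), again resting on libraries 7 and 6 (0.36 without them), r = 0.10 with the matrix level, and r = -0.56 with log10 depth (permutation p = 0.0462, adjusted 0.231; Spearman coefficient -0.62, permutation p = 0.0264, adjusted 0.132). AMOT had r = 0.20, 0.07 and -0.36 with the same 3 measures (permutation p = 0.498, 0.832 and 0.221), and without library 0 its r was 0.015 with the mural level and -0.074 with depth. ECE1 had r = 0.22 and 0.50 with the mural and matrix levels and -0.08 with depth (permutation p = 0.478, 0.0790 and 0.798), and its mural r was 0.48 without library 1. The matrix r of ECE1 was 0.69 without libraries 2 and 12 (permutation p adjusted 0.0973). None of the 15 correlations passed an adjusted p of 0.05 by either coefficient, and 3 of them, all with ARAP3, had an unadjusted p under 0.05 by r. After a linear term for log10 depth, ARAP3 kept r = 0.67 with the endothelial level and 0.61 with the mural level (permutation p adjusted 0.122 for both), while its r with AMOT was -0.34 (adjusted 0.510) and that of AMOT with the mural level was 0.0096.

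**Figure D5:**
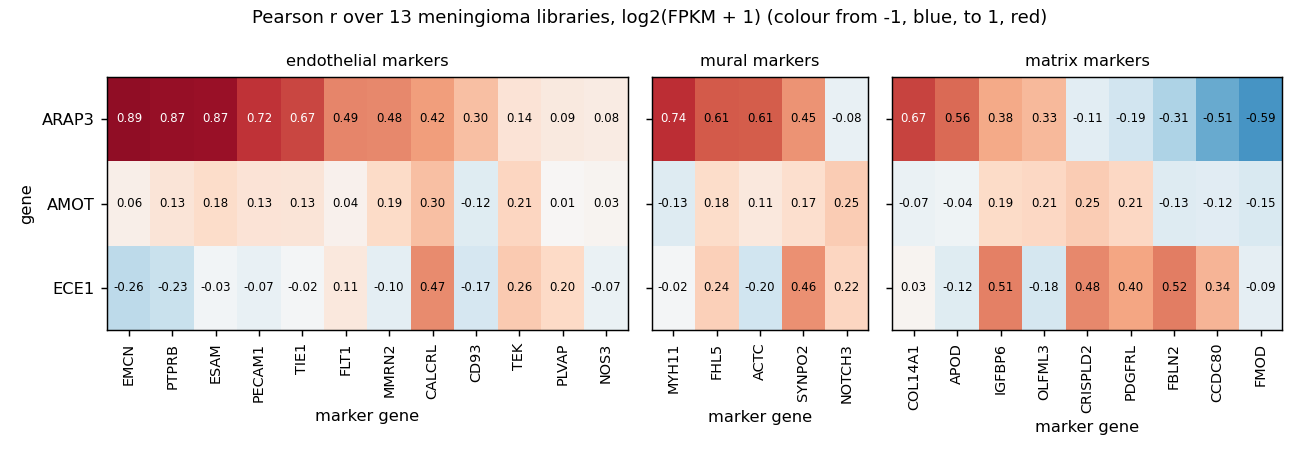
Pearson r of ARAP3, AMOT and ECE1 with each endothelial, mural and matrix marker over the 13 meningioma libraries, log2(FPKM + 1), coloured from -1 (blue) to 1 (red). ARAP3 is positive with all 12 endothelial markers, up to 0.89 with EMCN, and with 4 of 5 mural and 4 of 9 matrix markers. AMOT stays between -0.12 and 0.30 with the endothelial markers.

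Among themselves, the 3 genes were not shown to rise and fall together as a set, and the intervals are wide. ARAP3 had r = -0.06 with AMOT (95% interval -0.59 to 0.51; permutation p = 0.839, adjusted 0.899; Spearman coefficient -0.33, permutation p = 0.272, adjusted 0.584) and r = -0.26 with ECE1 (95% interval -0.71 to 0.34; permutation p = 0.387, adjusted 0.829; Spearman coefficient -0.41, permutation p = 0.169, adjusted 0.422). AMOT and ECE1 had r = 0.49 (95% interval -0.09 to 0.82; permutation p = 0.0878, adjusted 0.263) and Spearman coefficient 0.59 (permutation p = 0.0377, adjusted 0.141), which did not pass the adjustment, and r = 0.65 without libraries 3 and 1.

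The genes most like each of them over the 13 meningiomas were taken from the 121 expressed genes with a symbol, and are given as a description. For ARAP3 these were TM4SF18 (r = 0.95), EMCN (0.89), CYYR1 (0.88), PTPRB (0.87) and ESAM (0.87), which held ranks 2, 6, 8, 10 and 13 among 14666 expressed genes with or without a symbol. EMCN, PTPRB and ESAM are endothelial markers, and TM4SF18, a multi-pass membrane protein, kept r = 0.90 without libraries 7 and 6. For AMOT the likeness was looser, with DRP2 (dystrophin-related protein 2) at 0.70, TF (transferrin) at 0.63, CPZ (carboxypeptidase Z) at 0.51, FOSB at 0.38 and COMP at 0.33, at ranks 42 to 1584. DRP2 fell to 0.16 without libraries 0 and 8, and FOSB to 0.011 without libraries 11 and 2. For ECE1 they were FOS (0.70), FOSB (0.67), SCN7A (0.62), ZFP36 (0.60) and FMN2 (0.57, and 0.18 without libraries 11 and 1), at ranks 95 to 446, of which FOS, FOSB and ZFP36 are immediate-early response genes that the study listed as higher in meningioma. None of the 5 genes nearest to ECE1, and none of those nearest to AMOT, was an endothelial marker of the list.

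In the RefSeq gene order of the assembly UU_Cfam_GSD_1.0, chromosome 2 holds both ARAP3 and ECE1, separated by 414 protein-coding genes, and chromosome X holds AMOT. The gene next to ECE1 is ALPL, tissue-nonspecific alkaline phosphatase, which the study listed as lower too. It had a log2 fold change of -4.73 (SE 0.48), a larger fall than that of ECE1. The next listed genes to ECE1 are PDPN, listed as higher, with 78 protein-coding genes between, and TINAGL1, listed as lower, with 147. The paper places ECE1, TINAGL1, COL16A1 and PIK3R1 in one region and proposes a possible deletion there, which was not tested. In the gene order used here these genes are not all neighbors. Counted from ARAP3, the protein-coding genes between number 92 for PIK3R1, 263 for COL16A1, 266 for TINAGL1 and 414 for ECE1. ARAP3 lies between FCHSD1 and PCDH1, and the nearest listed gene to it is PIK3R1, with 92 protein-coding genes between. The nearest listed gene to AMOT is DRP2, with 103 protein-coding genes between.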

How the data were processed

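RNAseq libraries of 13 canine meningiomas and 3 control meninges were used. Per the submitters' processing notes and the methods, the authors trimmed reads with cutadapt 1.8, discarded ribosomal and short noncoding RNA reads, aligned the remainder to CanFam3 with TopHat2 2.0.13 and ran Cuffdiff 2.2.1. For 24580 genes the authors deposited an estimated count of fragments, a signal (fragments divided by a size factor per library) and FPKM. Single-library precision is set by 2138741 to 7358925 fragments, and intervals cover counting error only.

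The 3 genes, the markers and the pathway lists were chosen with earlier results of these data known. Symbols came from the study's lists of changed genes (124 identifiers). Libraries were grouped by the condition letter of the table. Genes reaching 10 fragments in 3 or more libraries were fitted with edgeR 4.0.16 (R 4.3.3; TMM, quasi-likelihood; fragments rounded, those of the 3 genes being whole). Standard errors were derived from the fold change and its F statistic. Correlations used log2(FPKM + 1), 13 meningiomas, two-sided permutation tests with 100000 resamples, and Benjamini-Hochberg adjustment over 15, in scipy 1.17.1 and Python 3.11.15. Likeness was ranked among genes averaging 1 FPKM or more, and the 5 highest with a symbol were named, beside every pathway gene and chromosome neighbor with an identifier. Alternatives were DESeq2 1.42.0, limma 3.58.1, other size factors, filters and pseudocounts, log2 CPM, residuals on depth, and libraries left out. Scripts were tested on simulated data.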

Additional observations from a re-analysis of the deposited data

How the results depend on the processing

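The log2 fold changes kept their direction under all 24 alternatives for each gene. That outcome was close to fixed beforehand and is no test of robustness. The genes were listed for this contrast, and all meningiomas lay below all controls for each gene. Leaving out a library could thus hardly reverse the direction, and the ranges describe only how far the size of the fall moved. Leaving out 1 library gave -2.39 to -1.95 for ARAP3, -2.20 to -1.76 for AMOT and -2.21 to -1.84 for ECE1, and the other 8 settings gave -2.26 to -2.02, -2.18 to -1.83 and -2.13 to -2.01. Between 371 genes (at least 50 fragments) and 612 genes (no filter) had all meningiomas below all controls.

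Correlations over 13 tumors were less stable. With 1 library left out, ARAP3 with the endothelial level ranged from 0.53 to 0.79 (adjusted p 0.0175 to 0.343, the lowest without library 2), and it was 0.79 without libraries 2 and 12 (adjusted p 0.0284). The ARAP3 with mural r, 0.61 to 0.80, passed adjustment without library 2 (0.80), without library 3 (0.77) and without libraries 2 and 12 (0.78). ARAP3 with AMOT ranged from -0.28 to 0.12 and turned positive without library 4 (0.0035) or 11 (0.12), and it was -0.34 on residuals of depth. AMOT with the endothelial level ranged from -0.069 (without library 0) to 0.33, and ECE1 from -0.12 to 0.31, positive without library 1 (0.31), 3 (0.08), 4 (0.0056) or 11 (0.10). ARAP3 with the matrix level ranged from -0.35 (without library 7) to 0.25. ECE1 with the matrix level ranged from 0.40 to 0.62, and was 0.69 without libraries 2 and 12 (permutation p adjusted 0.0973). ECE1 with depth ranged from -0.37 to 0.052, positive without library 3 (0.03) or 12 (0.052), and was 0.061 without libraries 2 and 12. ARAP3 with ECE1 (-0.40 to -0.15) and AMOT with ECE1 (0.36 to 0.56) kept their sign. The difference in endothelial r was 0.30 to 0.74 for ARAP3 less AMOT, 0.31 to 0.91 for ARAP3 less ECE1, and -0.15 to 0.27 for AMOT less ECE1, negative without library 0 (-0.02) or 1 (-0.15). ARAP3 over AMOT within libraries was 0.70 without library 11 (exact p = 0.0254). The causes were not tested.

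No paired analysis was possible because meningiomas and controls came from different dogs, and the library numbers of the table carry no pairing. Counts of pathway genes outside the study's lists could not be made, since the tables used here paired none of their symbols with an identifier of the deposited table.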
